A study of Mus musculus with 12 samples.

Results

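N-acetylaspartate (NAA) and acetate were followed on their way to fatty acids through 8 genes, chosen by name in the order of the pathway. They are Nat8l, Folh1, Aspa, Acss1, Acss2, Acly, Acaca and Fasn. A gene was read from a probe set, the group of short array probes that gives 1 value, when the platform annotation pairs that probe set with this gene alone. This rule found 9 of the 35556 probe sets. Acaca had 2 of them, and the brighter over all 12 arrays stands for the gene. All 8 genes had values above system noise, the level under which a probe set was treated as not detected, as did 17656 of the 19938 genes on the array with a probe set of their own.

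The study asked how gene expression in the medial prefrontal cortex (mPFC) differs after long social stress. The chronic social defeat (CSD) group was 6 wild type male C57BL/6 mice that lived for 14 days beside an aggressive CD-1 male, with a perforated partition between them and an encounter of 5 min each day. Only defeated mice that met the criteria of social interaction and light/dark tests entered the group. The homecage (HC) group was 6 wild type male C57BL/6 mice that lived in groups and were not defeated. The mice were adult. Tissue was dissected 24 h after the last encounter from brains perfused with saline, with the forceps minor, a bundle of white matter, as the guide, and 200 ng of total RNA from each mouse went to 1 Affymetrix Mouse Gene 1.0 ST array.

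NAA is made in the mitochondria of neurons from aspartate and acetyl-CoA by N-acetyltransferase 8-like, the product of Nat8l. Part of it is joined to glutamate, and the dipeptide is split again outside the cell by the carboxypeptidase encoded by Folh1. Oligodendrocytes, the cells that wrap axons in myelin, take NAA up and cleave it with aspartoacylase (Aspa) into aspartate and acetate. Loss of this enzyme causes Canavan disease, a disorder of white matter in children. Acetate becomes acetyl-CoA through the synthetases of mitochondria (Acss1) and of the cytosol and nucleus (Acss2), while ATP citrate lyase (Acly) makes cytosolic acetyl-CoA from citrate. Acetyl-CoA carboxylase (Acaca) turns it into malonyl-CoA, from which fatty acid synthase (Fasn) builds palmitate, a precursor of membrane lipids that myelin needs in large amounts.

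The values are log2 expression after robust multi-array averaging (RMA), and differences are CSD minus HC on that scale. Array medians ranged from 7.50 to 7.69. HC replicates 2 and 6 had the lowest median correlations with their own group, 0.992 and 0.991, and the lowest quality weights from limma, 0.259 and 0.397. Differences of the pathway genes are therefore also given without them, and those of the marker levels are not. The 10 neuron markers and the 5 cortical layer markers used here were above system noise. No gene of the array passed the adjusted threshold used here (limma, Benjamini-Hochberg adjusted p under 0.05 with a fold change of at least 1.2), so the share called was 0.00%, for 0 of 17656 genes. At an unadjusted p under 0.05, limma had 1151 genes lower in CSD, 6.52% of those measured, and 334 higher, 1.89%. With the fold limit added these shares were 0.600% lower and 0.0793% higher. The median difference over all genes was −0.01, and 57.1% of genes had a lower mean in CSD.

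All 8 genes of the pathway had a lower mean in CSD mice, but Aspa alone separated the groups. At an unadjusted p under 0.05, 2 of the 8 were lower (Aspa and Acly) and 0 were higher, and with a fold change of at least 1.2 only Aspa was left. None passed the adjustment. The median difference of the 8 genes was −0.09, and apart from Aspa the differences lay between −0.13 and 0.00.

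**Figure D1:**
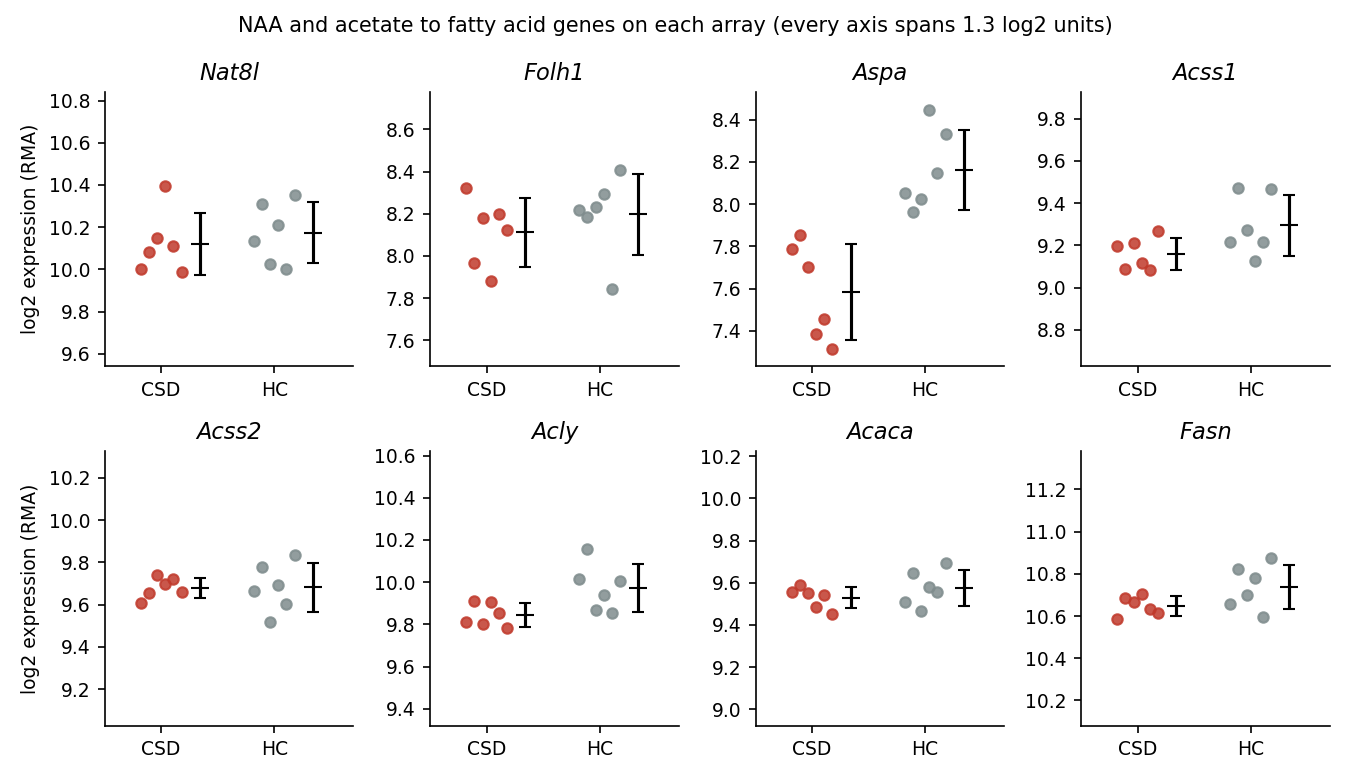
Log2 expression (RMA, vertical axis) of each gene on each array, with CSD mice in red, HC mice in grey and the mean ± SD of each group beside the points (n = 6 each). The 6 CSD mice lie below the 6 HC mice for Aspa, with a gap of 0.107 log2 units, while the groups overlap for the other genes.

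Nat8l, the enzyme that makes NAA in neurons, did not differ beyond the spread between mice. Its log2 values ran over 9.99, 10.10 and 10.39 (lowest, median and highest) in CSD mice, against 10.004, 10.17 and 10.35 in HC mice. The groups overlapped along nearly their whole range, and the highest value of all was that of CSD replicate 8. The means were 10.12 ± 0.15 in CSD and 10.17 ± 0.14 in HC (SD, n = 6 each), a difference of −0.05 (95% interval −0.22 to 0.12, limma adjusted p = 0.904, exact permutation test two-sided p = 0.535). The 10 neuron markers had a mean log2 level of 12.08 ± 0.02 in CSD and 12.11 ± 0.03 in HC (SD, n = 6 each, exact permutation p = 0.0909). Read against these markers on the same array, Nat8l differed by −0.02 (exact 95% interval −0.201 to 0.159, exact permutation p = 0.799).

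Folh1, whose product splits N-acetylaspartylglutamate (NAAG) into NAA and glutamate, showed a similar overlap. Its log2 values had a lowest, median and highest of 7.88, 8.15 and 8.32 in CSD mice, against 7.84, 8.22 and 8.41 in HC mice. The lowest value of all was in an HC mouse. The difference was −0.08 (95% interval −0.29 to 0.12, limma adjusted p = 0.870, exact permutation p = 0.429).

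Aspa, which frees acetate from NAA in oligodendrocytes, was lower in CSD mice without overlap between the groups. Its log2 values were 7.32, 7.58 and 7.86 (lowest, median and highest) in CSD mice, against 7.96, 8.10 and 8.45 in HC mice. CSD replicates 8, 9 and 10 held the lowest 3 values and HC replicates 4 and 6 the highest 2. The means were 7.58 ± 0.23 in CSD and 8.16 ± 0.19 in HC (SD, n = 6 each), a difference of −0.58 (standard error 0.11, 95% interval −0.82 to −0.34), or 0.670 times the HC level on the linear scale. The exact permutation test gave p = 0.00216, the smallest that 6 against 6 arrays allow, and limma gave p = 0.000172 unadjusted and an adjusted p of 0.132, which did not pass. The groups separated in this direction for 0.935% of all genes measured. Without HC replicates 2 and 6 the difference of Aspa was −0.58 as well (standard error 0.12, limma adjusted p = 0.235).

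The sequence upstream of Aspa is shown because Aspa is the gene that separated the groups, and that of Fasn because it stands at the other end of the pathway and did not. Both are the 250 bases before the transcription start from RefSeq (GRCm38.p6), written 5′ to 3′ on the minus strand of chromosome 11, at chr11:73324638-73324887 for Aspa and chr11:120824548-120824797 for Fasn. Capitals mark CANNTG, the E box, in Aspa, and CCAAT on either strand in Fasn, where a pair of matches overlaps. Only the named motif is marked in each window.
Aspa: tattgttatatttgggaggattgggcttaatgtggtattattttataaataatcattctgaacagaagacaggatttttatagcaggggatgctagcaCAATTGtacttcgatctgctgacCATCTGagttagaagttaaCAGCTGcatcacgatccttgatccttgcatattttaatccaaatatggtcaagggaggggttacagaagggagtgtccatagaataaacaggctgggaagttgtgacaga
Fasn: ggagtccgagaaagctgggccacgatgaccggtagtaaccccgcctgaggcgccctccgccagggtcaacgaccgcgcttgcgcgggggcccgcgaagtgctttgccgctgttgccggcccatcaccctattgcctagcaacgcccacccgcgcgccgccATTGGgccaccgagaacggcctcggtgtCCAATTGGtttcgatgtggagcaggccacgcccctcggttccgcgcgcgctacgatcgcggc

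The 2 windows differ in base composition. That of Aspa had a GC content of 38.8% with 2 CpG pairs, and that of Fasn 69.2% with 33 CpG pairs, while the 32851 windows of this length in the RefSeq table had a median of 52.4% and 6 CpG pairs. The Aspa window held 3 matches to CANNTG, as 12.2% of all windows did or exceeded, and the Fasn window 3 matches to CCAAT on either strand, a count that 2.79% reached. Each window also held 1 match to the motif marked in the other. At least 1 CCAAT was found in 33.8% of all windows and at least 1 CANNTG in 66.2%. Of the other genes, Acss1, Acss2 and Acly had GC contents of 61.6%, 64% and 68.8% and held 2, 4 and 4 matches to GGGCGG on either strand, a motif found in 32.7% of all windows. Acaca and Folh1 had GC contents of 39.2% and 40.8% and held 0 and 1 matches to GGGCGG, and Aspa and Fasn held 0. A match of letters is a description of the window only, and the arrays did not measure binding. The table matched 7 of the 8 genes, Nat8l being the exception.

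The difference in Aspa was of the size seen in oligodendrocyte markers. The 9 markers used for this cell type were Mog, Mag, Mbp, Mobp, Cnp, Cldn11, Ermn, Opalin and Mal. All 9 were lower in CSD at an unadjusted p under 0.05 with a fold change of at least 1.2 in limma, and their median difference was −0.58. Their mean log2 level ranged from 9.35 to 9.93 in CSD mice and from 9.93 to 10.54 in HC mice, so that the ranges met without overlapping (difference −0.61, exact permutation p = 0.00216). Relative to this level on the same array, Aspa averaged −2.06 ± 0.08 in CSD and −2.10 ± 0.13 in HC (SD, n = 6 each), a difference of 0.03 (exact 95% interval −0.106 to 0.169, exact permutation p = 0.580). In whole tissue, fewer oligodendrocytes and less Aspa RNA in each of them cannot be told apart.

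Relative to Nat8l, the enzyme at the neuronal end, Aspa was lower in CSD. The log2 difference of Aspa minus Nat8l on the same array was −2.54 ± 0.30 in CSD and −2.01 ± 0.20 in HC (SD, n = 6 each). Only the change between groups can be read from these values, since 2 probe sets do not share a scale. That change was −0.52 (standard error 0.15, exact 95% interval −0.878 to −0.201, exact permutation p = 0.00649, adjusted p = 0.0260 over the 4 such differences tested). The groups overlapped, since HC replicate 2, at −2.35, lay below CSD replicates 2 and 6, at −2.21 and −2.23.

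Within each group, Aspa was higher in mice with a higher oligodendrocyte marker level, though not past the adjustment. In CSD mice Pearson's r was 0.94 (exact permutation p = 0.0167) and Spearman's rho 0.94 (exact permutation p = 0.0167), with n = 6. In HC mice r was 0.90 (exact permutation p = 0.0208) and rho 0.94 (exact permutation p = 0.0167), with n = 6. Adjusted over the 16 relations examined, 8 genes in 2 groups, these became 0.111 for r and 0.0889 for rho in both groups and did not pass. Without the 2 mice farthest from the median marker level, r was 0.85 in CSD and 0.94 in HC, over 4 mice each. Acaca had an r of 0.90 in CSD (exact permutation p = 0.0125, adjusted p = 0.111, rho 0.94) and of 0.29 in HC (exact permutation p = 0.549), which became 0.71 in CSD and 0.84 in HC without the 2 farthest mice. The difference between the groups in r was not tested. For Nat8l r was −0.08 in CSD and 0.06 in HC, and −0.51 in CSD and 0.75 in HC without the 2 farthest mice, so that these values rest on single mice. The arrays share their RNA extracts between the markers and these genes.

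**Figure D2:**
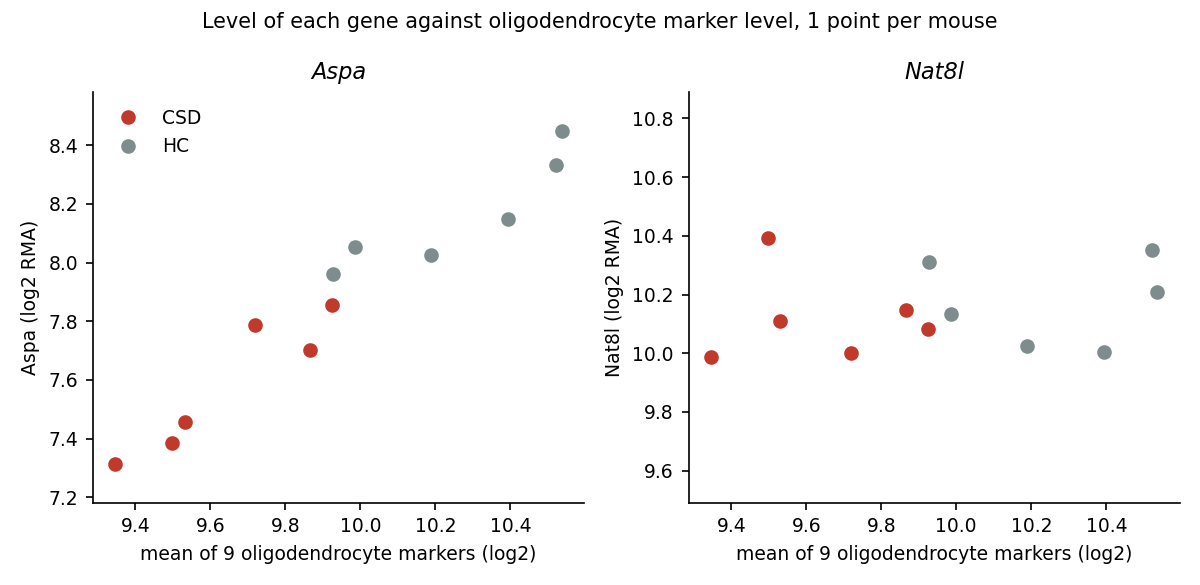
Log2 level of Aspa (left) and Nat8l (right) against the mean log2 level of 9 oligodendrocyte markers on the same array, 1 point per mouse, CSD in red and HC in grey. Aspa rises with the markers in both groups (r of 0.94 in CSD and 0.90 in HC), and over all 6 mice of a group Nat8l had an r of −0.08 in CSD and 0.06 in HC.

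The genes whose values were most like those of Aspa, after the mean of each group was taken off, were Fa2h (r = 0.97), Gpr37 (0.94) and Cnp (0.92), over 12 arrays and among all genes measured. Their own differences were −0.49, −0.50 and −0.58. Cnp is also among the oligodendrocyte markers used above. For Nat8l the 3 most similar genes were Med13l (0.98), Zmiz2 (0.96) and Ube2o (0.95). For Folh1 they were Fam98b, Kpna2 and Bnip2, each at 0.93. These lists were not recomputed without the HC arrays of lowest quality weight, so how far those arrays shape them was not tested.

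The 2 acetyl-CoA synthetases gave small differences. Acss1, the mitochondrial enzyme, had log2 values of 9.08, 9.16 and 9.27 (lowest, median and highest) in CSD mice, against 9.13, 9.24 and 9.47 in HC mice. Of the CSD mice 3 lay below the lowest HC mouse, and HC replicates 2 and 6 were both at 9.47, apart from the other HC mice. The difference was −0.13 (95% interval −0.27 to 0.00, limma p = 0.0545 unadjusted and adjusted p = 0.605, exact permutation p = 0.0649), and it was −0.05 without HC replicates 2 and 6 (exact permutation p = 0.286).

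Acss2, the enzyme of the cytosol and nucleus, had values of 9.61, 9.68 and 9.74 in CSD mice (lowest, median and highest), against 9.52, 9.68 and 9.84 in HC mice. The CSD mice lay inside the range of the HC mice, and the means were 9.68 ± 0.05 in CSD and 9.68 ± 0.12 in HC (SD, n = 6 each, 95% interval of the difference −0.11 to 0.11, limma adjusted p = 0.996, exact permutation p = 0.955). Set against Acss1 on the same array, Acss2 changed by 0.13 (exact 95% interval −0.007 to 0.269, exact permutation p = 0.0606, adjusted p = 0.121 over the 4 differences), so a difference between the 2 synthetases was not shown.

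Acly, which supplies acetyl-CoA from citrate, was the second gene lower in CSD at an unadjusted p. Its log2 values were 9.78, 9.83 and 9.91 (lowest, median and highest) in CSD mice, against 9.85, 9.97 and 10.16 in HC mice. Of the CSD mice 4 lay below the lowest HC mouse, and HC replicate 2 had the highest value. The means were 9.84 ± 0.06 in CSD and 9.97 ± 0.11 in HC (SD, n = 6 each), a difference of −0.13 (standard error 0.05, 95% interval −0.24 to −0.02, 8.52% less on the linear scale). The exact permutation test gave p = 0.0260, and limma gave p = 0.0279 unadjusted and an adjusted p of 0.529, which did not pass. Without HC replicates 2 and 6 the difference was −0.07 (exact permutation p = 0.114).

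Acaca, the enzyme of malonyl-CoA synthesis, gave like values from both of its probe sets. The brighter had means of 9.53 ± 0.05 in CSD and 9.57 ± 0.09 in HC (SD, n = 6 each), a difference of −0.04 (95% interval −0.14 to 0.05, limma adjusted p = 0.848, exact permutation p = 0.286). The other had 8.90 ± 0.03 in CSD and 8.94 ± 0.11 in HC (SD, n = 6 each), also a difference of −0.04 (limma adjusted p = 0.874, exact permutation p = 0.400). In both probe sets the CSD mice were less spread than the HC mice. The same held for Folh1, Acss1, Acss2, Acly and Fasn but not for Nat8l and Aspa, and spread was not tested.

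Fasn, which builds palmitate, had log2 values of 10.58, 10.65 and 10.70 (lowest, median and highest) in CSD mice, against 10.59, 10.74 and 10.88 in HC mice. The CSD mice sat at the lower end of the HC range, the lowest of them just below it. The difference was −0.09 (95% interval −0.20 to 0.01, limma p = 0.0850 unadjusted and adjusted p = 0.672, exact permutation p = 0.0909), and −0.03 without HC replicates 2 and 6 (exact permutation p = 0.390).

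These small differences moved with the 2 HC arrays that stood apart. HC replicates 2 and 6 were the 2 highest HC arrays for 5 of the 8 genes (Nat8l, Acss1, Acss2, Acaca and Fasn), and so they were for 22.6% of all genes measured. For Aspa they were not, as HC replicate 2 had the lowest HC value. Without both arrays the remaining 10 gave Nat8l 0.03, Folh1 −0.03, Acss2 0.06 and Acaca 0.00, and 1 of the 8 genes, Aspa, was lower at an unadjusted p under 0.05 in limma. Over all genes that share was then 3.40%, and the median difference was 0.01. As a description, the correlations among these genes also moved without these arrays. The pairs that moved furthest were pairs of Acss1, and they turned sign. Acss1 had 0.33 with Acly over 12 arrays with the group means taken off and −0.65 over 10. With Acaca it had 0.40 and −0.62, with Acss2 0.48 and −0.49, with Fasn 0.44 and −0.51 and with Nat8l 0.26 and −0.55. Its pairs with Folh1 (0.35 and 0.18) and with Aspa (−0.24 and −0.40) moved less and kept their sign. Acss2 and Fasn had an r of 0.76 over 12 arrays and of 0.41 over 10, and Acss2 and Acaca had 0.74 and 0.35. Nat8l and Fasn had 0.82 and 0.71, while Aspa and Nat8l were near 0 both ways (−0.03 and −0.04). Aspa and Acaca ran the other way, with 0.56 over 12 arrays and 0.88 over 10.

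**Figure D3:**
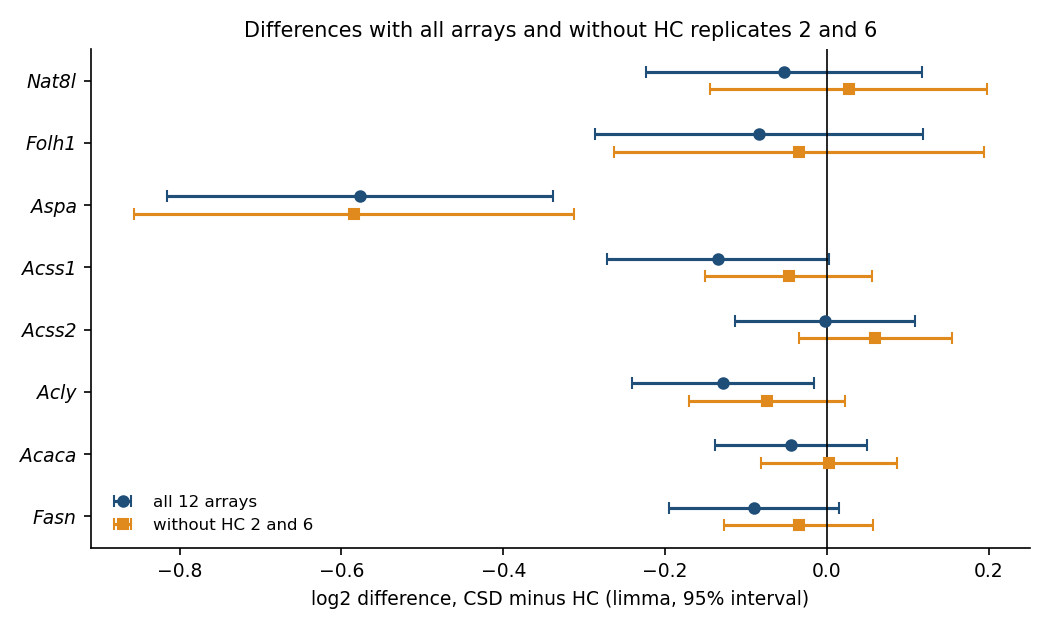
Log2 difference CSD minus HC (horizontal axis) with its 95% interval from limma for each gene, over all 12 arrays (blue circles) and without HC replicates 2 and 6 (orange squares). The interval of Aspa excludes 0 both ways, at −0.58 each time, and that of Acly does so only with all 12 arrays.

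Among the genes most similar to the enzymes of acetyl-CoA use, again with the group means taken off over 12 arrays, Acss2 had Pigs (r = 0.98), Paqr3 (0.97) and Zfp846 (0.96). Acss1 had Lrp12 (0.91), A930004D18Rik (0.91) and Fbxo22 (0.90), and Acly had Heatr5a (0.97), Brd2 (0.93) and Lysmd1 (0.93). For Acaca they were Tbc1d14 (0.97), Golgb1 (0.97) and Slc35f4 (0.95), and for Fasn Arf6 (0.98), Pygo2 (0.96) and Josd1 (0.96). None of these 15 genes is on a marker list used here. Correlations among the pathway genes moved without the HC arrays of lowest quality weight. The lists of similar genes were not recomputed without those arrays.

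Other genes around the pathway, in 6 lists, showed small differences only. Of 56 genes listed 51 were measured, 39 of them with a lower and 12 with a higher mean in CSD, with a median difference of −0.03 and a range from −0.21 to 0.08. The lower means were 76.5% of these genes, against 57.1% over all genes. In limma 5 were lower, 9.80% against 6.52% over all genes, and 0 higher at an unadjusted p under 0.05, and 0 passed the adjustment. No gene of the 51 separated the groups. Over all genes 0.935% did so with CSD lower and 0.0793% with CSD higher, so none among 51 is near the share over all genes. Without HC replicates 2 and 6, 25 of the 51 had a lower and 26 a higher mean, with 3 lower and 1 higher at an unadjusted p under 0.05 (limma). Over all genes the shares were then 41.5% with a lower mean, 3.40% lower and 5.11% higher at that p.

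The genes that make, move and cleave NAA and NAAG gave 5 lower and 2 higher means among 7 measured of 9, with a median difference of −0.07 and 0 at an unadjusted p under 0.05 in limma. Acy1, an aminoacylase that removes acetyl groups from other N-acetylated amino acids, differed by −0.11 (limma adjusted p = 0.677). Rimklb, a synthetase that joins NAA to glutamate, differed by −0.09 (limma adjusted p = 0.712).

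The 9 genes of mitochondrial aspartate, citrate and acetyl-CoA supply had a median difference of −0.05, with 8 lower means and 1 higher. Slc25a1, the carrier that exports citrate to the cytosol where Acly uses it, averaged 9.54 ± 0.08 in CSD and 9.66 ± 0.08 in HC (SD, n = 6 each), a difference of −0.11 (standard error 0.05, exact permutation p = 0.0411, limma p = 0.0401 unadjusted and adjusted p = 0.561). It was −0.07 without HC replicates 2 and 6 (exact permutation p = 0.181). Crat, the carnitine acetyltransferase, differed by −0.07 (limma adjusted p = 0.730).

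Of the 8 genes of acetate and acetyl-CoA handling, 6 had a lower and 2 a higher mean, with a median difference of −0.04. Slc16a1, the monocarboxylate transporter MCT1 that carries lactate, ketone bodies and acetate across membranes, ranged from 8.85 to 9.15 in CSD mice and from 9.06 to 9.27 in HC mice. The ranges overlapped, and the difference was −0.21 (standard error 0.06, exact permutation p = 0.0108, limma p = 0.00441 unadjusted and adjusted p = 0.315). Without HC replicates 2 and 6 it was −0.17 (exact permutation p = 0.0476). Sirt1, a deacetylase that acts on the cytosolic acetyl-CoA synthetase, differed by −0.07 (limma adjusted p = 0.738).

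The malonyl-CoA list had 6 lower and 2 higher means among 8 genes, with a median difference of −0.02. Mid1ip1, a protein that promotes the assembly of acetyl-CoA carboxylase into active polymers, ranged from 9.20 to 9.37 in CSD mice and from 9.36 to 9.58 in HC mice. The highest CSD mouse lay just above the lowest HC mouse, and the difference was −0.17 (standard error 0.04, exact permutation p = 0.00433, limma p = 0.00276 unadjusted and adjusted p = 0.288). It was −0.15 without HC replicates 2 and 6 (exact permutation p = 0.0190). Prkag1, a subunit of the AMP-activated kinase that switches the carboxylase off, differed by −0.05 (limma adjusted p = 0.757).

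The partners of fatty acid synthase, 9 measured of 10, had a median difference of −0.02 and none at an unadjusted p under 0.05 in limma (0 lower, 0 higher). Acsbg1, which activates long fatty acids, differed by −0.09 (exact permutation p = 0.0390, limma p = 0.0622 unadjusted and adjusted p = 0.628). Its difference was −0.04 without HC replicates 2 and 6 (exact permutation p = 0.171). Mcat, the malonyltransferase of the separate mitochondrial pathway, differed by 0.08 (limma adjusted p = 0.682) and by 0.11 without HC replicates 2 and 6 (exact permutation p = 0.0190).

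The transcription factors of lipid synthesis and their controls, 10 measured of 12, had 7 lower and 3 higher means and a median difference of −0.05. Insig1, which holds the sterol-regulated factors in the endoplasmic reticulum and is itself a target of them, ranged from 10.21 to 10.36 in CSD mice and from 10.29 to 10.59 in HC mice. Its difference was −0.18 (standard error 0.05, exact permutation p = 0.00866, limma p = 0.00401 unadjusted and adjusted p = 0.313), and −0.12 without HC replicates 2 and 6 (exact permutation p = 0.0381). Mlx, the partner of the carbohydrate-response factor, differed by −0.11 (exact permutation p = 0.0346, limma p = 0.0295 unadjusted and adjusted p = 0.532) and by −0.10 without those arrays (exact permutation p = 0.105).

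**Figure D4:**
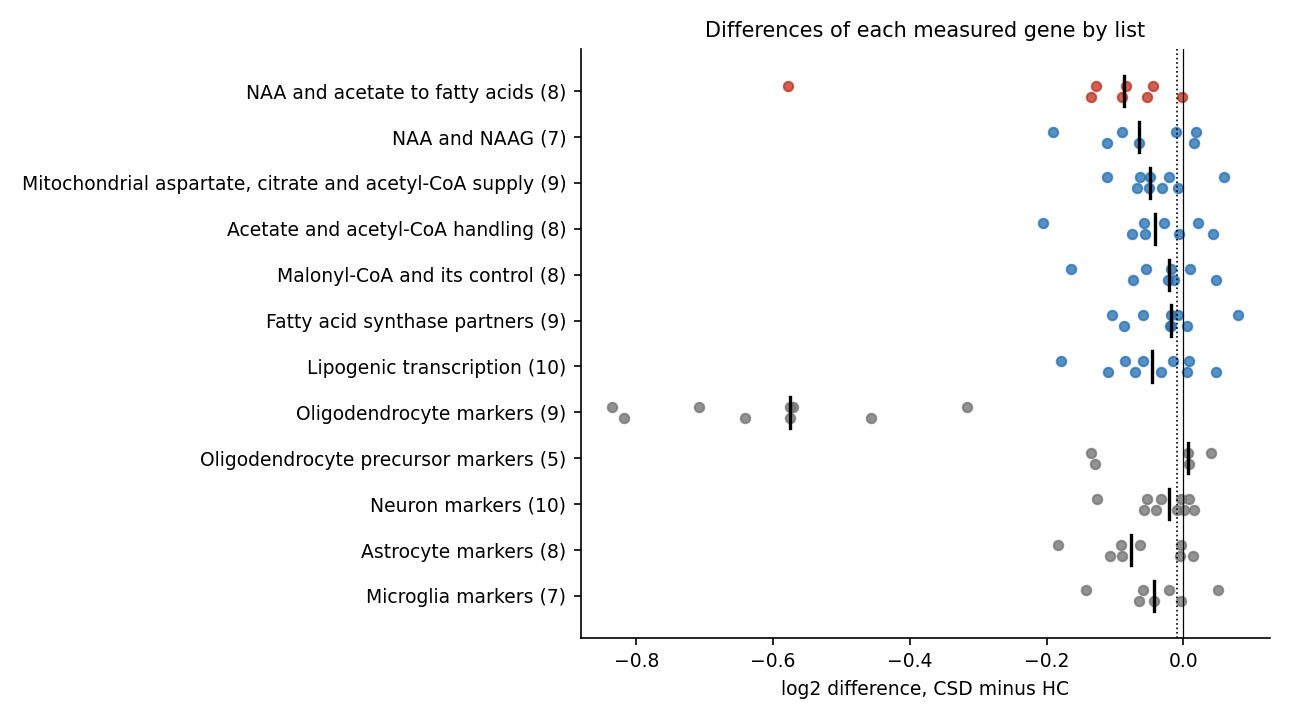
Log2 difference CSD minus HC (horizontal axis) of every measured gene in each list, with its number of genes in brackets, a black bar at the list's median and a dotted line at the median of all genes (−0.01). Aspa lies among the 9 oligodendrocyte markers (median −0.58), apart from the other genes of its own pathway and from the 51 genes around it.

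The mean marker level differed by −0.04 for oligodendrocyte precursors (exact permutation p = 0.210), −0.07 for astrocytes (exact permutation p = 0.132), −0.04 for microglia (exact permutation p = 0.262) and −0.08 for endothelial cells (exact permutation p = 0.162). Single markers among them were lower at an unadjusted p under 0.05 in limma. They were 2 of 5 for precursors (Lhfpl3 at −0.13 and Gpr17 at −0.13) and 1 of 8 for astrocytes (Aqp4, −0.18). The count was also 1 of 7 for microglia (P2ry12, −0.14) and 1 of 5 for endothelial cells (Tek, −0.21). Among all genes measured, 6.52% were lower at that p. For Tek the groups did not overlap, and 0.935% of all genes separated in this direction. For cells that a dissection can carry along, the mean marker level differed by −0.06 for striatal neurons (3 of 4 markers measured, exact permutation p = 0.682), −0.07 for choroid plexus (3 of 3, exact permutation p = 0.390) and 0.10 for red blood cells (2 of 3, exact permutation p = 0.344). The 5 cortical layer markers differed by −0.08 (exact permutation p = 0.0303, unadjusted), and 1 of them, Tle4 (−0.15), was lower at an unadjusted p under 0.05 in limma. HC replicates 2 and 6 had the 2 highest HC levels for precursors, astrocytes, microglia, endothelial cells and choroid plexus. For astrocytes they stood at 10.96 and 10.95, and the next HC mouse at 10.88. The marker levels were not recomputed without these arrays.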

How the data were processed

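Expression was measured in the mPFC of 6 CSD and 6 HC mice, each on an array of its own. The log2 values deposited by the authors come from RMA, run in the Affymetrix Expression Console, which corrects background, normalizes between arrays and summarizes probes. Program versions and the genome build were not given in the sources used here. Of the array's probe sets 21789 are paired with 1 gene, 1621 with several and 12146 with none.

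As in the methods, probe sets never above system noise were dropped and lower values raised to it. The methods give no noise value, and it was set to 5.75, the 20th percentile of the whole table, which left 29838 probe sets, with 4.67% of their values raised. The groups were compared by limma 3.58.1 under R 4.3.3 (functions lmFit and eBayes, two-sided p-values adjusted by Benjamini-Hochberg across every probe set left), single values with exact permutation tests over 924 splits, and ratios within an array with the same test inverted for its interval. The limma comparison was tried on simulated data first, and the permutation test was not. The number of arrays limits the precision, and an array has no read depth. Plots used matplotlib 3.10.9 and Python 3.11.15.

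The genes and lists were chosen with earlier results of these data known. Named genes are the 8 genes of the pathway, the 2 genes of each list with the smallest p and the 3 genes most similar to each of the 8 by Pearson's r. As alternatives, results were recomputed with the methods' t-test, with another adjustment, fold limit, floor, filter or noise level, on probe sets with 1 gene only, after centring or quantile normalization, with a robust trend, limma's array weights or a block for the replicate number, with a gene's probe sets averaged, and with arrays left out. Leaving out arrays for the lists was added after seeing the data. Promoter windows came from RefSeq (GRCm38.p6).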

Additional observations from a re-analysis of the deposited data

Results flagged for a closer look

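Of 30 sets of 6 values checked with Dixon's test at the 95% level, where chance alone gives about 1 in 20, a single set held a value far from the rest. Nat8l relative to the neuron markers was −1.66 on the log2 scale in CSD replicate 8, while the next CSD mouse was at −1.96. This gap took up 0.648 of the spread of the 6 CSD values, more than the test allows. The same mouse had the highest Nat8l level of all 12. It did not stand apart among CSD mice for Aspa, where it was the second lowest of the 6.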

How the results depend on the processing

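Over 24 alternatives, Aspa was lower in CSD in each, and 23 kept an unadjusted p under 0.05. Its adjusted p ranged from 0.0532 (probe sets with 1 gene only) to 1 (replicate block), so it never passed. Over single arrays left out, its difference ranged from −0.63 to −0.52. Leaving out 1 array gave 1 to 4 lower genes among the 8, with 1 without HC replicate 2, CSD replicate 2 or CSD replicate 7 and 4 without HC replicate 5, and a median from −0.13 to −0.05. It was 1 without HC replicates 2 and 6, 1 with a fold change of at least 1.2 and 0 after adjustment, and no alternative gave a higher gene. Acly lost its unadjusted p under 0.05 in 7 alternatives, and Acss1 reached it in 8 and Fasn in 2.

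The sign changed for Acss2 with quantile normalization (0.013), array weights (0.033), without HC replicates 2 and 6 (0.060) and in the range over single arrays (−0.035 to 0.029), and without HC replicates 2 and 6 for Nat8l (0.027), Acaca (0.0027) and Nat8l relative to neuron markers (0.042, and −0.083 to 0.0083 over single arrays). Aspa relative to Nat8l ranged from −0.59 to −0.43 over single arrays. Acss2 relative to Acss1 ranged from 0.10 to 0.17 and passed an unadjusted p under 0.05 (exact permutation test) without HC replicate 1 or 4 or CSD replicate 2 or 10. Of the pathway genes, 3 to 7 were lower over single arrays, with 3 without HC replicate 2 and without CSD replicate 2, and 3 without HC replicates 2 and 6.

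The groups share only replicate numbers 2 and 6, whose deviations correlated at −0.21 and −0.04, so the number was not taken as a pairing. With the replicate number as a block, 1 residual degree of freedom is left, the count was 1, which was Acss1 (−0.33), and the median −0.22. Aspa (−0.33), Acly (−0.22) and Aspa relative to Nat8l (−0.035) no longer had an unadjusted p under 0.05, and Nat8l was at −0.29. In this fit the difference between groups comes only from replicates 2 and 6 of each group, and the other arrays do not enter it. HC replicates 2 and 6 are also the arrays that stood apart.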
